A study of Mus musculus with 6 samples.

Results

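The autophagy machinery was described here as 36 genes named by symbol, which encode the proteins that build an autophagosome and load it with cargo. All 36 were found among the 19401 genes of the deposited files, and all 36 had enough counts in both groups to be tested, the lowest count of any of them in any library being 126. The members were named by their known function, although earlier results of these data were known when they were chosen. Retinal RNAseq compared 9-month-old male 5XFAD mice that drank efavirenz (EFV) from 3 months of age with control 5XFAD mice that drank the vehicle, the control libraries being labelled untreated. The sample labels give an EFV dose of 0.08 mg/kg of body weight, and the methods of the study give a slightly higher one. 5XFAD mice are a transgenic model of Alzheimer's disease, hemizygous for mutant human amyloid precursor protein and mutant human presenilin 1 on the B6SJL background, and both groups carry the transgenes. The colony lacks the rd8 mutation of Crb1 and the rd1 mutation of Pde6b. No mouse without the transgenes was sequenced, so the comparison is of EFV within the model. Each of the 3 libraries per group came from a pool of retina plus retinal pigment epithelium (RPE) of 5 to 6 mice, and the errors given below are those between pools, not between mice.

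Autophagy carries cytoplasm, aggregated proteins and worn organelles to the lysosome. The ULK1 kinase complex starts the process, a class III PI3-kinase complex marks the growing membrane with a phosphoinositide, ATG9 and ATG2 bring lipid, and 2 ubiquitin-like conjugation systems attach the ATG8 proteins (LC3 and GABARAP) to the membrane, where cargo receptors bind them. In the eye the pathway is known for the upkeep of photoreceptors, and in the RPE a part of it also serves the digestion of shed outer segments. EFV at this low dose is used in the study as an activator of the cholesterol hydroxylase CYP46A1, and autophagy is among the processes that the study names as touched by this enzyme in the brain.

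The RNA of the autophagy machinery was at almost the same level in control and EFV-treated mice. An adjusted p of 0.05 or less was found for 0 of the 36 genes in the quasi-likelihood test of edgeR, with Benjamini-Hochberg (BH) adjustment over the 15537 genes tested, the smallest adjusted p among them being 0.999. Over all genes tested the same test found 0 (0.0%). The study set its limits at an unadjusted p of 0.05 and a change of 7%, and with these limits on the p of edgeR 0 of the 36 passed, against 3.01% of all genes tested (1.47% higher and 1.54% lower). No member reached an unadjusted p of 0.05 or less in edgeR (3.04% of all genes), in DESeq2 (1.74%) or by limma on log2(FPKM + 0.1) (3.19%). DESeq2 also put no member past the limits of the study (1.73% of all genes) or at an adjusted p of 0.05 (0.0708%). A Poisson model, the kind of model on which the study bases its threshold and which leaves out the spread between pools, placed 8 members at or under 0.05 before adjustment (25.1% of all genes). It put 3 of them (Uvrag and Atg101 higher, Atg3 lower) past the limits of the study, against 14.8% of all genes, and gave Uvrag, Atg3 and Ambra1 an adjusted p of 0.05 or less, against 13.1% of all genes. Fitted log2 fold changes of EFV over control lay between -0.12 for Atg3 and 0.17 for Atg101, with a median of 0.0045 over the members and of 0.0012 over all genes tested.

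A p above the threshold does not show that levels are equal, so the size of change that the data still allow was taken from the 95% interval of each fold change. For 32 of the 36 members this interval lay between 20% lower and 25% higher, the narrow band used below, as it did for 63.0% of all genes tested and for 86.7% of the 10334 genes whose mean FPKM lay within the range of the members. The 4 members whose interval reached beyond this band were Atg101, Atg10, Atg16l2 and Atg4a, whose mean FPKM was 10.3, 4.06, 3.18 and 3.66. The interval of Atg10 was the widest upward, from a fold change of 0.890 to 1.41, and that of Atg16l2 reached lowest, from 0.770 to 1.24. By the fitted values 20 members (50.5% of all genes) were higher with EFV and 16 lower. With scaling by total counts in place of the trimmed mean of M values (TMM) the split was 23 higher and 13 lower, the median of all genes then moving to 0.0167, so a direction is given below only beside its value.

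**Figure D1:**
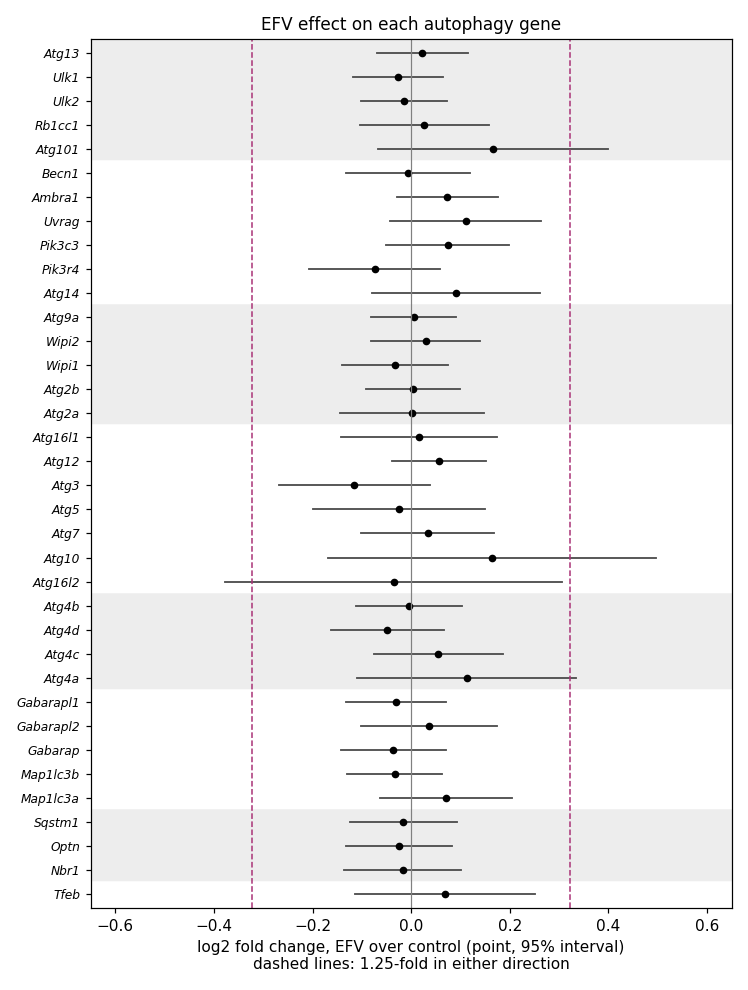
Log2 fold change of EFV-treated over control mice for each of the 36 autophagy genes (points) with its 95% interval (lines, edgeR), grouped by role in shaded bands from the ULK1 complex at the top to Tfeb at the bottom. The dashed lines mark 20% lower and 25% higher, and the intervals of 32 genes lie between them.

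The libraries were of even depth, with 23455167 to 24590278 counts. Control replicate 3 stood apart from the rest, with lens genes (8 markers summed) at 834.1 FPKM against 8.95 to 34.7 in the other libraries, and RPE markers (8 summed) were lowest in control replicate 2, at 237.1 against 270.4 to 288.0 FPKM. Rod markers (8 summed) held 25445 to 27547 FPKM, Muller cell markers (8) 1896 to 2064 and microglia markers (8) 17.9 to 20.4, so markers of the labelled tissue were present in every library. By the fit 7 of the 8 RPE markers were higher with EFV, with a median log2 fold change of 0.38 (median SE 0.26). Of these, 2 were past the limits of the study, against 1.47% of all genes tested. All 7 lens markers tested were lower and past these limits, against 1.54% of all genes. Yet the groups overlapped in FPKM for all 7, and only control replicate 3 had the high lens sum, so these calls rest on that library. The study itself lists Rpe65, Lrat, Crybb1, Crybb3, Mip and Bfsp2 as changed in these libraries. The counts of markers past the limits were thus partly fixed in advance. The part of RPE and lens tissue in the autophagy values was not tested. In these bulk libraries fewer cells of a type and less RNA per cell cannot be told apart. Without control replicate 3 the median log2 fold change of the members was 0.0166 (0.0009 over all genes). Without control replicate 2 it was -0.0001 (0.0014 over all genes). When each library was left out in turn, 0 to 1 of the 36 passed the limits of the study.

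The members differ from each other far more than the groups do. Mean FPKM over the 6 libraries, a level per kilobase of transcript, ran from 140.8 for Gabarapl1 to 3.18 for Atg16l2, a 44.3-fold range. Among the members, the 8 genes above 50 FPKM were all 5 of the ATG8 family and all 3 cargo receptors. These encode proteins that become part of the autophagosome and its cargo. The enzymes, kinases and scaffolds among the members lay below them, from 30.4 FPKM for Atg13 downward. Atg10, Atg4a and Atg16l2 were below 5 FPKM. This split did not fully hold in the wider pathway examined below. Of its receptors and mitophagy genes, Bnip3l, Tollip, Calcoco1 and Fundc1 had means of 41.8, 34.9, 26.4 and 18.8 FPKM. Only Pink1, Tax1bp1 and Bnip3 in that group were above 50 FPKM, at 108, 96.8 and 90.5. Outside that group only Rab7 (109) and the AMPK gene Prkab1 (81.8) were above 50 FPKM. The median member stood at the 71.0th percentile of the genes tested. Of the 35 pairs of neighbours in this order, 16 were in the same order in all 6 libraries, and for 9 of them the ranges over the 6 libraries did not overlap. The upper 8 genes kept a clear gap to the rest, since Nbr1 at 53.9 to 58.7 FPKM did not overlap Atg13 at 29.4 to 31.3. Other neighbours could not be separated, for example Atg9a at 27.2 to 28.9 and Becn1 at 25.9 to 29.4 FPKM, where Atg9a was the higher in only 2 of 6 libraries.

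**Figure D2:**
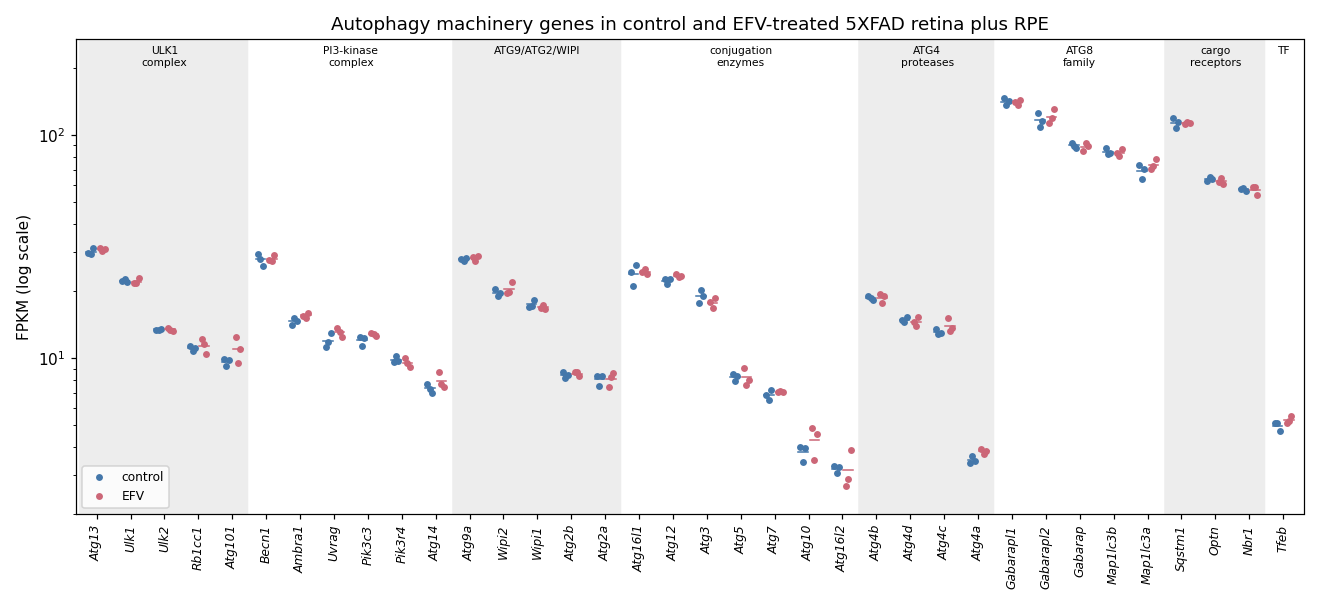
FPKM on a log scale of the 36 autophagy genes in 3 control (blue) and 3 EFV (red) libraries, with the mean of each group as a bar, grouped by role (TF, transcription factor). The ATG8 family and the cargo receptors lie above 50 FPKM, and in nearly every gene the points of the groups lie at the same height.

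The ULK1 complex receives the nutrient signal of mTORC1 and AMPK and starts autophagosome formation. Its most abundant RNA was Atg13, the regulatory subunit, with 29.5, 29.4 and 31.3 FPKM in control replicates 1 to 3 and 31.3, 30.2 and 30.9 in the EFV libraries. The EFV values lay inside or at the edge of the control range, and the log2 fold change was 0.02 (standard error, SE, 0.04). Of the kinases, Ulk1 held 61.2 to 63.3% of the summed FPKM of Ulk1 and Ulk2 in every library, and both were steady, Ulk1 with 22.2 ± 0.306 (SD, n = 3) in control against 22.1 ± 0.696 (SD, n = 3) in EFV-treated mice and Ulk2 with 13.46 ± 0.0819 (SD, n = 3) against 13.47 ± 0.228 (SD, n = 3). Rb1cc1, which encodes the scaffold FIP200, had 11.1 ± 0.265 (SD, n = 3) and 11.4 ± 0.866 (SD, n = 3) FPKM.

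Atg101, which stabilises ATG13 in this complex, had the largest positive fold change of the 36. Its FPKM was 9.88, 9.24 and 9.84 in control and 12.4, 9.52 and 10.95 in EFV-treated mice. EFV replicates 1 and 3 lay above all control libraries, whereas EFV replicate 2 lay among them. The log2 fold change was 0.17 (SE 0.10, 95% interval -0.07 to 0.40). It was 0.25 and past the limits of the study without EFV replicate 2, and 0.07 without EFV replicate 1, so EFV replicates 1 and 2 set its size. The gene (Entrez 68118) lies on chromosome 15 from 101284301 to 101290947 of GRCm38, the assembly also called mm10.

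The class III PI3-kinase complex was the group with the highest median log2 fold change, 0.07, with 4 members higher and 2 lower and none past a limit. The catalytic subunit Pik3c3 (VPS34) had 12.4, 11.3 and 12.3 FPKM in control and 13.0, 12.8 and 12.6 in EFV-treated mice. All EFV libraries lay above all control libraries here, yet the nearest values were 12.6 and 12.4, and the log2 fold change was 0.07 (SE 0.06). Pik3r4 (VPS15), the regulatory subunit that is needed for the kinase to work, went the other way with 9.58, 10.2 and 9.77 FPKM in control and 9.99, 9.49 and 9.16 with EFV, the log2 fold change being -0.07 (SE 0.06). The values of these partners were of equal size and opposite sign, each with a 95% interval that includes 0. Becn1 (Beclin 1), the most abundant member of the complex, had 29.4, 28.0 and 25.9 FPKM in control and 27.7, 27.2 and 29.0 in EFV-treated mice. Its log2 fold change of -0.01 (SE 0.06) turned to 0.01 when the libraries were scaled by total counts.

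ATG14 and UVRAG compete for this complex, ATG14 taking it to the forming autophagosome and UVRAG to the endosome and later steps. Uvrag had the lowest p of the higher members, 0.137 before adjustment, with 11.2, 11.8 and 12.9 FPKM in control and 13.7, 13.1 and 12.5 in EFV-treated mice. The groups overlapped only through control replicate 3, and the log2 fold change was 0.11 (SE 0.07). Without control replicate 3, the library with the lens genes, it was 0.17 and past the limits of the study. Atg14 had 7.33 ± 0.352 (SD, n = 3) and 7.90 ± 0.665 (SD, n = 3) FPKM, for a log2 fold change of 0.09 (SE 0.08), so the share of Uvrag in the summed FPKM of this pair stayed between 59.3 and 64.9% over the libraries. Ambra1, which promotes both ULK1 and Beclin 1 activity, had 14.1, 15.2 and 14.7 FPKM in control and 15.5, 15.2 and 16.0 in EFV-treated mice. Its EFV values were close to or above the top of the control range, with a log2 fold change of 0.07 (SE 0.05).

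The genes that supply and mark the membrane had log2 fold changes from -0.03 to 0.03, and all 5 intervals lay in the narrow band. Atg9a, the lipid scramblase that seeds the membrane, had 27.8, 27.2 and 28.2 FPKM in control and 28.5, 27.2 and 28.9 with EFV, the log2 fold change being 0.01 (SE 0.04). The lipid carriers Atg2a and Atg2b contributed nearly equally, Atg2a making up 46.1 to 50.9% of the pair, and each had a log2 fold change of 0.00 (SEs 0.06 and 0.04). Atg2a had 8.05 ± 0.462 (SD, n = 3) and 8.08 ± 0.591 (SD, n = 3) FPKM, and Atg2b had 8.43 ± 0.28 (SD, n = 3) and 8.54 ± 0.221 (SD, n = 3). Wipi2, which recruits the ATG16L1 complex, and Wipi1 also shared their summed FPKM nearly evenly, with Wipi2 at 51.9 to 57.0%. Their log2 fold changes were 0.03 (SE 0.05) and -0.03 (SE 0.05). A further doubt attaches to Atg9a, which shares 31.8% of its exonic bases with the predicted gene Gm29253 on the same strand.

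The conjugation enzymes work like the E1, E2 and E3 enzymes of ubiquitin. Atg7, the E1-like enzyme of both conjugation systems, was at a low RNA level with little spread, 6.84 ± 0.340 (SD, n = 3) FPKM in control and 7.09 ± 0.0153 (SD, n = 3) with EFV, the log2 fold change being 0.03 (SE 0.06). The proteomics of the study lists the ATG7 protein among those that differed between EFV-treated and control retina. That is a measure of protein, and the values here are of RNA only. Atg3, the E2-like enzyme that passes LC3 to its lipid, had the most negative fold change of the 36. Its FPKM was 17.7, 20.1 and 19.1 in control and 17.8, 16.8 and 18.6 in EFV-treated mice. The groups overlapped through control replicate 1, which was low, and the log2 fold change was -0.12 (SE 0.07, 95% interval -0.27 to 0.04). Without control replicate 1 it was -0.17 and past the limits of the study, and without control replicate 2 it was -0.06. Atg10, the E2-like enzyme for ATG12, was among the lowest and most variable members, with 3.80 ± 0.315 (SD, n = 3) and 4.31 ± 0.722 (SD, n = 3) FPKM.

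ATG12, ATG5 and ATG16L1 form the complex that places LC3 on the membrane, and their RNA levels were unequal, Atg5 being the lowest. Atg12 had 22.6, 21.5 and 22.7 FPKM in control and 23.8, 23.2 and 23.4 in EFV-treated mice. The groups did not overlap, but the gap between them was small beside the level, and the log2 fold change was 0.06 (SE 0.04). Atg5 had 8.26 ± 0.297 (SD, n = 3) and 8.23 ± 0.752 (SD, n = 3) FPKM. Atg16l1 had 24.3, 21.1 and 26.3 FPKM in control and 24.4, 25.1 and 24.0 in EFV-treated mice. Control libraries enclosed all EFV libraries for this gene, with a log2 fold change of 0.02 (SE 0.07). Atg16l1, the form used in canonical autophagy, made up 86.0 to 90.1% of the summed FPKM with its paralog Atg16l2. The paralog had 3.21 ± 0.121 (SD, n = 3) and 3.15 ± 0.653 (SD, n = 3) FPKM, its spread being widest with EFV, at 2.69, 2.87 and 3.9.

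The ATG4 proteases prime the ATG8 proteins and later release them from lipid. Atg4b was the most abundant with 36.4 to 37.6% of the summed FPKM of the 4 proteases, and Atg4a the least with 6.67 to 7.62%. Atg4b had 19.0, 18.7 and 18.2 FPKM in control and 19.4, 17.7 and 19.0 in EFV-treated mice, with EFV values on both sides of the control range and a log2 fold change of 0.00 (SE 0.05). Atg4d had 14.9, 14.5 and 15.3 FPKM in control and 14.5, 14 and 15.3 with EFV, the log2 fold change being -0.05 (SE 0.05). Atg4c had 13.1 ± 0.318 (SD, n = 3) and 13.997 ± 0.958 (SD, n = 3) FPKM, the top value being that of EFV replicate 1. Atg4a had 3.39, 3.66 and 3.45 FPKM in control and 3.93, 3.71 and 3.83 in EFV-treated mice. All EFV libraries lay above all control libraries, with a log2 fold change of 0.11 (SE 0.10). This value is uncertain, since 63.6% of the 50-base words of the Atg4a transcripts also occur in the pseudogene Atg4a-ps. RSEM divides such reads only among the genes of its annotation, whose release is not given in the sources used here.

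Pik3c3, Atg12 and Atg4a were the 3 members whose groups did not overlap in FPKM, each with the higher values in EFV-treated mice, and no member was lower without overlap. Over all genes tested 4.99% were higher and 2.68% lower without overlap, 7.67% in all, so 3 of 36 is near the background.

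The ATG8 family proteins are the ubiquitin-like tags on the autophagosome, and they were the most abundant part of the machinery. Gabarapl1 (Entrez 57436, chromosome 6 from 129533192 to 129542331 on GRCm38) led with 146.1, 136.2 and 142.0 FPKM in control and 140.5, 135.8 and 144.3 in EFV-treated mice. The EFV values fell within the control range or just under it, and the log2 fold change was -0.03 (SE 0.04). The order of the family was Gabarapl1, Gabarapl2, Gabarap, Map1lc3b and Map1lc3a, and it was the same in all 6 libraries. Gabarapl1 was clear of Gabarapl2, whereas the ranges of Gabarap, at 84.6 to 92.5 FPKM, and Map1lc3b, at 81.0 to 87.6 FPKM, overlapped. Each of the 3 genes of the GABARAP branch thus lay above each single LC3 gene within every library, and Map1lc3b, whose protein is the usual marker of autophagosomes, held 16.2 to 17.2% of the family.

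The share of each gene in the family varied little between libraries. Gabarapl1 held 27.1 to 28.6%, Gabarapl2 22.7 to 24.7%, Gabarap 16.9 to 18.6% and Map1lc3a 13.2 to 14.7% of the summed family FPKM over the 6 libraries. The control and EFV shares overlapped for each of them but Map1lc3a, with 13.2 to 14.2% in control and 14.3 to 14.7% in EFV-treated mice, a difference that was not tested. The FPKM of Map1lc3a itself overlapped, at 63.4 to 73.5 in control and 70.2 to 77.8 with EFV. Shares of Atg4a among the ATG4 proteases did not overlap either, at 6.67 to 7.37% in control and 7.40 to 7.62% with EFV. How often shares fail to overlap over all genes was not computed. The summed FPKM of the family was 501.6 ± 22.0 (SD, n = 3) in control against 507.2 ± 19.0 (SD, n = 3) in EFV-treated mice. On the log2 scale Map1lc3a had the largest difference in the family, 69.2 ± 5.22 (SD, n = 3) against 73.6 ± 3.90 (SD, n = 3) FPKM, giving a log2 difference of 0.07 (SE 0.06). The log2 fold changes of the other members were 0.04 (SE 0.06) for Gabarapl2, -0.04 (SE 0.05) for Gabarap and -0.03 (SE 0.04) for Map1lc3b. Control replicate 2 was lowest for Map1lc3a, at 63.4 FPKM against 70.2 to 77.8 in the other libraries. This was not particular to Map1lc3a, since on TMM-scaled CPM control replicate 2 was the lowest library for 9 of the 36 members. Transcripts of Gabarapl2 and Map1lc3b share 17.01 and 6.387% of their 50-base words with other annotated genes, mostly predicted genes, although the counts of both were whole numbers in all 6 libraries.

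**Figure D3:**
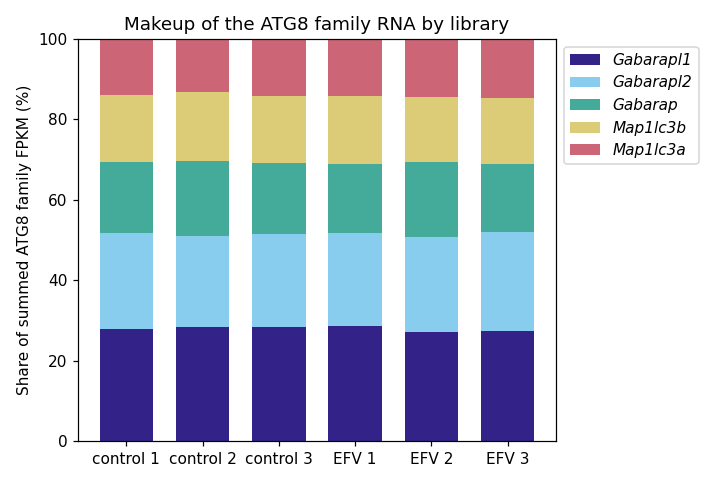
Share of each ATG8 family gene in the summed FPKM of the family (percent) in the 3 control and 3 EFV libraries. Gabarapl1 holds 27.1 to 28.6% in every library, and the shares of both groups overlap for each gene but Map1lc3a, a difference that was not tested.

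The cargo receptors link ubiquitin-tagged cargo to the ATG8 proteins, and all 3 had log2 fold changes close to 0. Sqstm1 (p62; Entrez 18412, chromosome 11 from 50200152 to 50210820 on GRCm38), which accumulates as a protein when autophagy stalls and is also induced by oxidative stress, had 119.6, 107.4 and 114.0 FPKM in control and 112.4, 114.9 and 113.7 in EFV-treated mice. The EFV libraries lay inside the control range, and the log2 fold change was -0.02 (SE 0.05). Optn, which encodes optineurin, a receptor for damaged mitochondria whose human gene is linked to glaucoma, had 63.7 ± 1.53 (SD, n = 3) and 62.0 ± 1.94 (SD, n = 3) FPKM. Nbr1 had 57.1 ± 0.976 (SD, n = 3) and 57.0 ± 2.70 (SD, n = 3) FPKM. Summed over the 3 receptors the FPKM was 234.4 ± 4.17 (SD, n = 3) in control against 232.6 ± 4.74 (SD, n = 3) in EFV-treated mice.

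Tfeb encodes a transcription factor that induces lysosomal and autophagy genes when mTORC1 is inactive, and it is regulated mainly through its place in the cell and not its RNA level. Its FPKM was 5.11, 5.11 and 4.73 in control and 5.11, 5.25 and 5.5 in EFV-treated mice. The groups met at 5.11 in 3 of the 6 libraries, and the log2 fold change was 0.07 (SE 0.08). TFEB binds the sequence CACGTG within a longer palindrome, so the promoters of the members were searched for it, from 250 bases before to 50 bases after each annotated start site (RefSeq, GRCm38.p6). Of the 36 members 30 had an entry in this table. The motif reads the same on both strands and occurred in 4 of these 30 genes (13.3%), against 8.09% of all 27025 genes with an entry. The longer form TCACGTGA, which contains the shorter one, occurred in 1 member, Atg3, and in 1.12% of all genes. The 5 matches are shown as the only ones among the members, each with 12 bases before and after the motif, which is in capitals.
Atg3, chr16:45158723-45158752, plus strand: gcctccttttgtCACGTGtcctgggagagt
Atg3, chr16:45158746-45158775, plus strand: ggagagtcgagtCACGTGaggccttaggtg
Atg5, chr10:44268313-44268342, plus strand: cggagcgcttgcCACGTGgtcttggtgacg
Atg7, chr6:114670952-114670981, plus strand: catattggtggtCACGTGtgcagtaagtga
Atg14, chr14:47568418-47568447, minus strand: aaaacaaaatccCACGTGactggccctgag
The 2 sites of Atg3 begin 94 and 71 bases before its start, the second being the longer form, and that of Atg7 precedes a start site inside the gene, which spans 114643127 to 114860604. The 4 genes with a match had log2 fold changes of -0.12 (Atg3), -0.02 (Atg5), 0.03 (Atg7) and 0.09 (Atg14), in no common direction. A match is only a stretch of letters and says nothing of binding in these tissues.

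Precision was set in part by counting. The SD between pools on the log2 scale, computed within groups from TMM-scaled CPM (counts scaled to a common library size), had a median of 0.0582 over the members, against 0.0766 over the genes tested in the same FPKM range. For 15 of the 36 members it was at most 1.5 times the SD that counting alone would give, among them Ulk2, Atg7, Atg9a, Atg12 and Tfeb. For the other 21 it was larger, with Nbr1, Atg16l1 and Gabarapl2 at 3.39, 3.27 and 3.25 times the counting SD. The largest deviations of a single library from the mean of a gene were those of Atg16l2 in EFV replicates 1 and 3, at -0.25 and 0.31, and of Atg101 and Atg10 in EFV replicate 1, at 0.27 and 0.26. The median deviation of the 36 genes in a library ran from -0.03 in control replicate 2 to 0.01 in EFV replicates 1 and 2. EFV replicate 1 held the highest value for 11 of the 36 genes and EFV replicate 2 for 1.

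**Figure D4:**
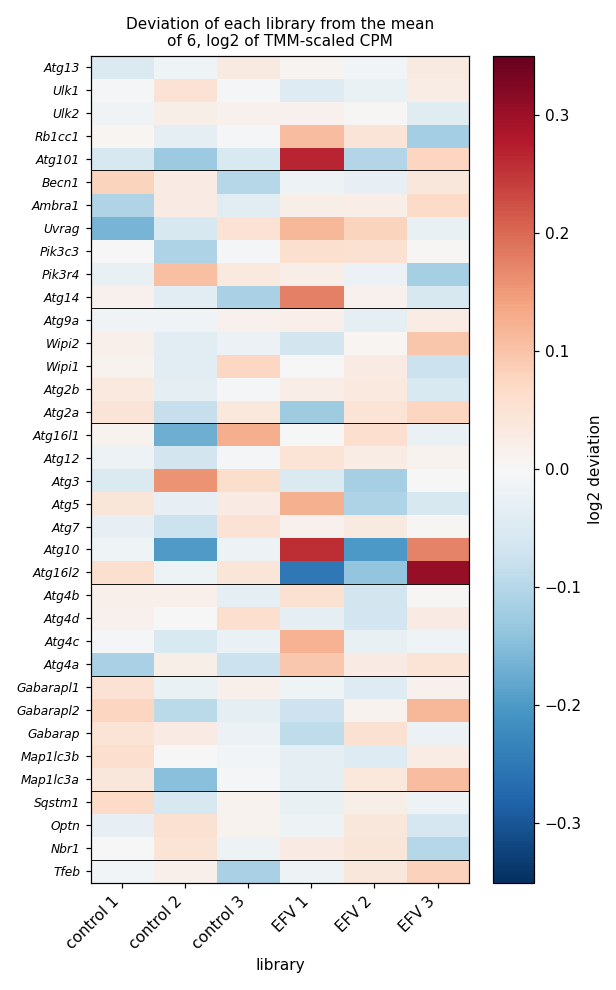
Deviation of each library from the mean of the 6 libraries for each of the 36 autophagy genes, as log2 of TMM-scaled CPM, from blue (below) to red (above), with lines between the roles. The strongest colours, Atg16l2, Atg101 and Atg10, fall in EFV replicates 1 and 3.

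Several members lie over other genes, and their values are uncertain for this reason too, since the strandedness of the libraries is not given in the sources used here. In GENCODE M21, Becn1 shares 43.9% of its exonic bases with Cntd1 on the opposite strand, Gabarapl1 28.3% with a noncoding transcript, Atg4d 19.3% with Kri1, Uvrag 17.6% with an antisense RNA and Sqstm1 17.3% with Mrnip, the partners being on the opposite strand. The counts of 6 members (Becn1, Wipi2, Atg4a, Atg4c, Atg4d and Optn) were not whole numbers in at least 4 libraries, as happens when reads are divided between genes. The values of these members are therefore less certain than their spread. The mean transcript length that the files give for each gene differed by at most 1% between libraries for 28 of the 36. It varied most for Wipi1, from 3765 to 4044 bases.

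The wider pathway was examined in the same way. Of 51 further genes of autophagy control and fusion, all were in the files and 50 were tested, the exception being Tfec. In edgeR 0 of the 50 were at or under 0.05 before adjustment (3.04% of all genes) or after it (0.0%). The limits of the study were passed by 0 of the 50, against 3.01% of all genes tested, so this count is near the background. By the fitted values 21 of the 50 were higher with EFV (50.5% of all genes) and 29 lower, their median being -0.01. The 12 upstream genes of mTORC1 and AMPK, which switch the ULK1 complex off and on, had log2 fold changes from -0.07 to 0.07 and a summed FPKM of 275.9 ± 10.1 (SD, n = 3) in control against 276.1 ± 1.86 (SD, n = 3) in EFV-treated mice. The 14 genes for fusion of the autophagosome with the lysosome ranged from -0.09 to 0.10, with 9 of them lower and a summed FPKM of 330.7 ± 0.821 (SD, n = 3) against 325.1 ± 0.497 (SD, n = 3). The sums of this group did not overlap, at 329.9 to 331.5 in control and 324.8 to 325.7 in EFV-treated mice, while none of its 14 genes passed a test. Most of this gap came from Rab7, the small GTPase of late endosomes, with 110.7, 115.8 and 109.5 FPKM in control and 106.9, 107.2 and 105.4 with EFV (log2 fold change -0.09, SE 0.05). The sums of the class III PI3-kinase complex did not overlap either, but were higher with EFV, at 82.6 to 84.5 against 85.5 to 88.5. Both gaps were named after the sums of all groups were seen, and neither was tested. Rab7 and Vps33a, a subunit of the HOPS tether, were the 2 of the 50 that were lower without overlap, and Rheb and Tsc2, an activator of mTORC1 and its inhibitor, the 2 that were higher, against 2.68% lower and 4.99% higher of all genes tested, so these counts are near the background, the 4 being named after their values were seen. The 10 further receptors and mitophagy genes ranged from -0.11 to 0.05, the 9 further phagophore genes from -0.21 to 0.07 and the 5 tested relatives of Tfeb and FOXO genes from -0.09 to 0.06. The interval of 49 of the 50 lay in the narrow band, against 63.0% of all genes tested and 86.7% of those in the FPKM range of the members. The exception, named after its value was seen, was Atg9b, a low paralog of Atg9a with 1.29 FPKM in control.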

How the data were processed

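Retina plus RPE RNA of 6 libraries, 3 control and 3 EFV, was analysed. Per the labels and the methods of the study, the authors aligned filtered reads to mm10 with Bowtie2 2.2.5 and estimated the deposited expected counts with RSEM 1.2.12, without normalization. HISAT2 2.0.4 is named in the submitters' processing notes with no role. The authors deposited FPKM values beside them, scaled to gene length and library total, with 0.01 as the smallest listed, and a gene missing from a library was taken as 0. The deposited length column (other) is the mean transcript length in bases. The read filter, annotation release and strandedness are not given in the sources used here.

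Expected counts were rounded, and the 15537 genes that reached 10 counts in 3 or more libraries entered edgeR 4.0.16 (R 4.3.3) and its quasi-likelihood test (TMM scaling, factors 0.984 to 1.01, group as the only term, two-sided, BH over all genes). Standard errors came from the F statistic, and 95% intervals from them. Limits of the study (unadjusted p of 0.05, change of 7%) were applied to the same p. The smallest two-sided p of an exact permutation test in this design is 0.1. Alternatives were other scalings and filters, DESeq2 1.42.0, a Poisson model, limma 3.58.1 on log2 FPKM, the replicate number as a block and leaving out each library. The methods were tested on simulated data. Log2 fold changes are on the scale of TMM-scaled counts, so their sign can differ from that of mean FPKM when both are near 0.

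The members and lists were chosen with earlier results of these data known. Per-library FPKM and full statistics are given by rule for members with non-overlapping groups, the most abundant of each role, the 3 with the smallest p in each direction and Tfeb, and other members by group values. Coordinates are those of RefSeq on GRCm38.p6. The libraries all differed by more than counting error, with chi-square values of 5.47 to 13.7 per degree of freedom.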

Additional observations from a re-analysis of the deposited data

How the results depend on the processing

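No autophagy member had an adjusted p of 0.05 or less under any alternative but the Poisson model. Scaling by total counts moved the median log2 fold change of the members to 0.0199, and limma on log2(FPKM + 0.1) and log2(FPKM + 1) to 0.0205 and 0.0193, with all genes moving alike. With 1 library left out the median of the members lay between -0.0001 and 0.0224, and that of all genes between -0.0022 and 0.0014. DESeq2 called 11 genes of all genes at an adjusted p of 0.05 and put 269 past the limits of the study, and the Poisson model 2043 and 2305, with 3 members and 1 other pathway gene past the limits. With 1 library left out these numbers were 0 to 1 (1 without EFV replicate 1) and 389 to 576 for all genes, 0 to 1 for the members and 0 to 3 for the other pathway genes (2 without control replicate 1, 3 without control replicate 3). The member past the limits was Atg3 without control replicate 1, Uvrag without control replicate 3 and Atg101 without EFV replicate 2. Members with an interval between 20% lower and 25% higher numbered 31 to 34 under all alternatives that give one.

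Signs turned for members near 0. Under total counts and the 2 limma fits Becn1 was at 0.0095, 0.0125 and 0.0120 and Atg4b at 0.0118, 0.0057 and 0.0055, and under the limma fits Sqstm1 was at 0.0010 and 0.0010. With 1 library left out Becn1 ran from -0.0561 to 0.0321, Atg4b from -0.0320 to 0.0248, Sqstm1 from -0.0488 to 0.0144, Atg9a from -0.0058 to 0.0221 and Atg16l1 from -0.0619 to 0.0872. The cause was not tested. With the replicate number as a block 0 members and 514 of all genes passed the limits, and no call of a member changed. The numbers share no animal, and the labels do not say that they pair the libraries. The main fit did not use the block. Yet same-numbered libraries deviated together with correlations of 0.0832 to 0.125, against -0.101 to -0.00629 for the other pairs. Every library thus correlated best with its own number. The study describes the treated mice as littermates of the controls. What the correlations reflect was not tested. The counting SD was largest for Atg10, Atg16l2 and Atg4a, at 0.117, 0.108 and 0.105 on the log2 scale.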
